A study of Mus musculus with 45 samples.

Results

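STRIPAK, the striatin-interacting phosphatase and kinase complex, joins protein phosphatase 2A to kinases of the GCKIII group. Striatins act as the scaffold, the adaptor Pdcd10 (also called CCM3) ties the GCKIII kinases to it, and further adaptors place the complex at membranes and on other kinases. Through its phosphatase the complex is known to restrain the kinases of the Hippo pathway, which in turn hold back the YAP and TEAD transcription factors, and in the mouse embryo Pdcd10 is required in endothelium. The 8 genes described here are the GCKIII kinases Stk24, Stk25 and Stk26, the kinase adaptor Pdcd10, and the adaptors Slmap, Sike1, Fgfr1op2 and Cttnbp2nl. They were chosen by their symbols, with earlier results of these data known. Each is represented by its brightest probe set, and they are 8 of the 18193 genes measured.

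Expression was measured in total RNA on 45 Affymetrix mouse genome arrays. The cells were male murine embryonic stem cells (ESCs) of strain 129 and the embryoid bodies (EBs) they form when they differentiate as aggregates in hanging drops. The 3 lines were wild type (WT), a scrambled control (SCR), and a line labelled as silenced for Strip2, the striatin-interacting protein also called Fam40b. Every line has 3 arrays at each of 5 stages (ESCs, then EB days 4, 8, 12 and 16), which gives 15 groups. The labels do not say whether the SCR and silenced lines are clones or pools, nor whether the arrays of a group came from separate cultures. The p-values therefore measure only the spread between these arrays, which may be technical. The arrays of a group are named below as the first, the second and the third.

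Values are log2 signals, in which a difference of 1 is a 2-fold change in signal. The probe sets of the 8 genes were bright, with mean signals between the 69.6th percentile of genes for Sike1 and the 95.6th for Pdcd10, which describes the probes and does not rank the genes' expression. The probe set for Strip2 was dim, at the 10.6th percentile, and was not lower in the line labelled as silenced than in WT. Its mean was above that of WT at every stage, by 0.02 to 0.63, called only at day 12 (limma adjusted p = 0.0061). In ESCs and at days 4 and 8 all 3 lines read 2.5 to 3.48, where the lowest value of any probe set was 1.82, so silencing could hardly be seen there. Against SCR the probe set was called lower at days 12 and 16 (-0.92 and -1.56), stages at which SCR (4.4 to 5.6) also stood above WT (2.52 to 3.23), and not at the other 3. The line is therefore called KD-labelled throughout, and every direction given for it rests on that label. The mean level of 20 pluripotency genes was 10.82 to 10.89 on the KD-labelled ESC arrays, 10.3 to 10.93 on those of SCR and 10.86 to 11.27 on those of WT. In EBs of all 4 days it was 10.23 to 10.55 in the KD-labelled line, against 5.03 to 6.35 in SCR and 5.41 to 6.86 in WT. The first 8-day array of each line is tagged as ESCs in another label field. On all 8-day arrays of SCR and WT the pluripotency mean was 5.13 to 5.71, apart from the control ESCs. In the KD-labelled line the mean of 15 endoderm and liver genes was 6.91 to 6.98 on all 8-day arrays, apart from its ESCs at 4.89 to 5.05.

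RefSeq (GRCm38.p6) gave the 250 bases before an annotated start for 6 of the 8 genes, with 8 starts in all. The windows of 4 genes with different courses are shown, 5′ to 3′: Stk26, with the widest span, Cttnbp2nl, whose brightest probe set rose in control EBs, Fgfr1op2, whose difference from both controls was wider at day 16 than in ESCs, and Pdcd10, whose brightest probe set hardly moved. They lie at chrX:50841121-50841370 (plus strand) for Stk26, chr3:105053147-105053396 (minus strand) for the outer start of Cttnbp2nl, chr6:146577653-146577902 (plus strand) for the outer start of Fgfr1op2 and chr3:75556853-75557102 (minus strand) for Pdcd10. The window of Stk26 reaches into the annotated gene, which begins at 50841174, and both its marked matches lie inside the gene. Capitals mark matches, on either strand, to the Sp/KLF motif GGGCGG, the CCAAT box CCAAT and the ETS motif CCGGAAG.
Stk26: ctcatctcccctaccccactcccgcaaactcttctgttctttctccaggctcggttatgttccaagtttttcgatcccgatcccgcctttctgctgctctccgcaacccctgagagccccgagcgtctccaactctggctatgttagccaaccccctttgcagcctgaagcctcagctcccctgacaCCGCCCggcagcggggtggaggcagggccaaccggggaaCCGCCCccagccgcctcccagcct
Cttnbp2nl: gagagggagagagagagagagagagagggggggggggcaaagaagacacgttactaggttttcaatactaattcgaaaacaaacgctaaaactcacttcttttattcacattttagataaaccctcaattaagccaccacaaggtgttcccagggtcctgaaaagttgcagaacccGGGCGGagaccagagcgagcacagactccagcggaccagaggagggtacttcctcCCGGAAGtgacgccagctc
Fgfr1op2: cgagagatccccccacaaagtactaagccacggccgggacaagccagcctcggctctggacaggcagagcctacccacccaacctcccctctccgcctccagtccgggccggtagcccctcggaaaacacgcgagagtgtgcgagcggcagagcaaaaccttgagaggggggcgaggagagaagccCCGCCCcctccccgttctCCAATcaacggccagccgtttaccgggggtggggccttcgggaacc
Pdcd10: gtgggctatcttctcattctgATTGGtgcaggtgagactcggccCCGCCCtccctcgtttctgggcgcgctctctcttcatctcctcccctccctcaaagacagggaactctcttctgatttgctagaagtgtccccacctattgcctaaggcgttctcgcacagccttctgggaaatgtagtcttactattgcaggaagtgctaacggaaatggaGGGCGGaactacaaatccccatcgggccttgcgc
The Sp/KLF motif, found in 32.7% of all 32841 windows of this length, stood at 2 places in the windows of Stk26 and Pdcd10 and at 1 in the others shown. Among the windows shown, the CCAAT box (33.9% of windows) stood in those of Fgfr1op2 and Pdcd10, and the ETS motif (6.91%) in that of Cttnbp2nl. Of the windows not shown, that of the inner Cttnbp2nl start held 2 CCAAT boxes, those of Stk25 and the inner Fgfr1op2 start 1 each, and that of Slmap 0. Neither the TEAD motif GGAATG (12.6% of windows), the TATA box TATAAA (12.4%), the E-box CACGTG (6.02%) nor the NRF1 core GCATGCGC (2.26%) was found in any of the 8 windows of the 6 genes. The windows held 9 to 26 CpG dinucleotides, against a median of 6 over all windows. A match describes these letters only.

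At each stage 3 to 6 of the 8 genes were lower in the KD-labelled line than in both controls. Against SCR, 4 of 8 were called lower in ESCs (of all genes, 11.3% were), 5 at day 4 (19.9%), 6 at day 8 (24.7%), 5 at day 12 (24.6%) and 5 at day 16 (26.8%). Against WT, 3 were called lower in ESCs (9.78% of all genes), 5 at day 4 (19.9%), 6 at day 8 (23.9%), 5 at day 12 (23.6%) and 5 at day 16 (26.1%). No member was called higher in any of these 10 comparisons. A call is an adjusted p under 0.05 in limma's moderated test with Benjamini-Hochberg adjustment over all genes. Both sets of comparisons use the same KD-labelled arrays. The shares cover all genes, dim ones too, whereas the members' probe sets were bright, and a share among bright genes is not given. The members called lower against both controls numbered 3 in ESCs (Stk24, Stk26, Fgfr1op2; 6.28% of all genes), and 5 at day 4 (16.8%) and day 12 (19.8%), with Sike1 and Cttnbp2nl. They numbered 6 at day 8 (with Stk25; 21%) and 4 at day 16 (Stk24, Slmap, Fgfr1op2, Cttnbp2nl; 23.1%).

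The median difference of the 8 genes from SCR was -0.33, -0.67, -0.7, -0.67 and -0.42 over the 5 stages, where the median of all genes was 0.03, 0.03, 0.07, 0.1 and 0.17. From WT it was -0.28, -0.47, -0.71, -0.59 and -0.46, with medians of all genes of 0.03, -0.01, 0.05, 0.04 and 0.13. All 3 KD-labelled arrays lay below all 6 control arrays for 4 members in ESCs (8.32% of all genes), 5 at day 4 (19.6%), 6 at day 8 (22.6%), 5 at day 12 (21.8%) and 5 at day 16 (24%). In bulk samples fewer cells of a type and less RNA per cell cannot be told apart.

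**Figure D1:**
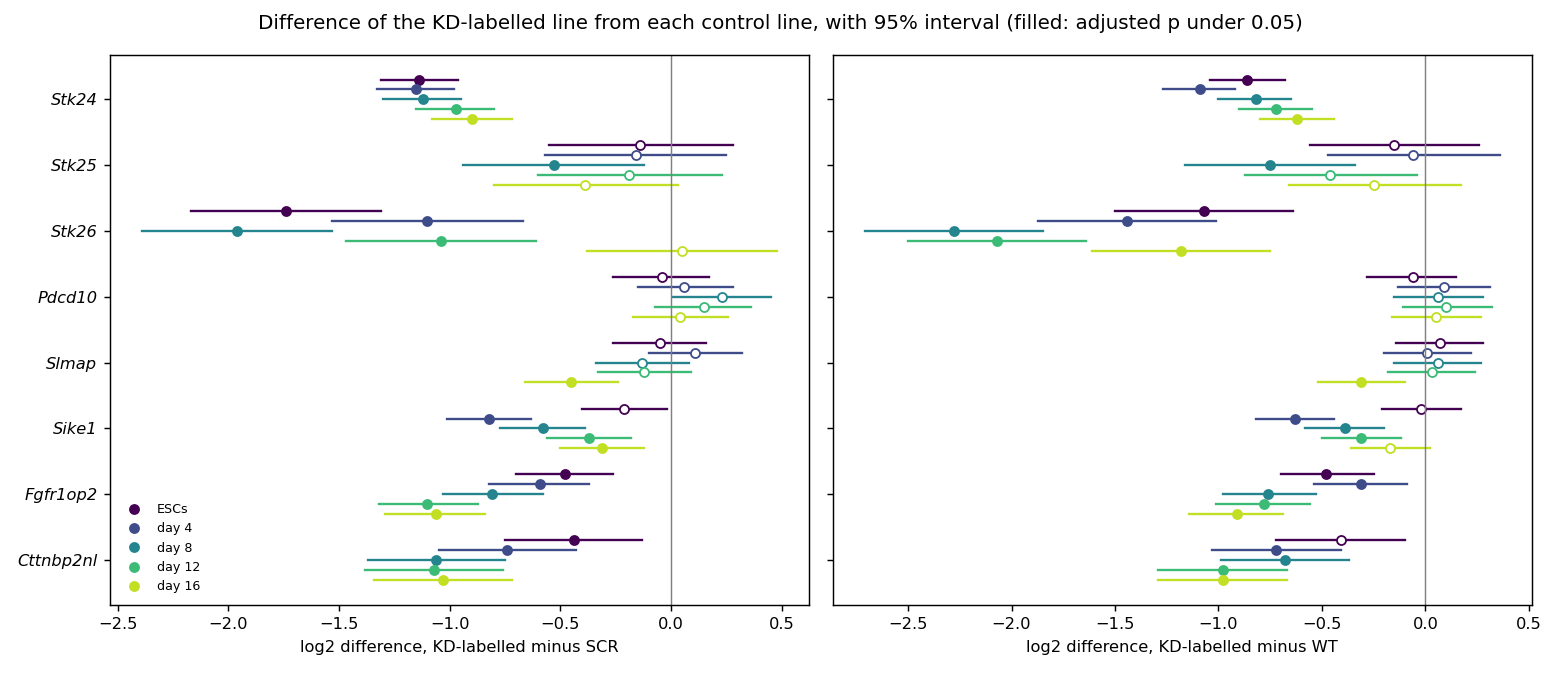
Difference of each gene between the KD-labelled line and SCR (left) or WT (right), in log2 units on the horizontal axis, with limma's 95% interval; colours mark ESCs and the days of EBs, and filled points are called. Stk24 lay left of 0 at every stage in both panels, whereas Stk26 met SCR at day 16 (0.05) and Pdcd10 stayed between -0.06 and 0.23.

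Stk24, a GCKIII kinase also known as MST3, was lower in the KD-labelled line at every stage. In ESCs its signal was 9.35, 9.34 and 9.58 on the KD-labelled arrays, 10.66, 10.45 and 10.57 on those of SCR, and 10.25, 10.21 and 10.39 on those of WT. At day 8 the arrays read 9.32, 9.28 and 9.17 in the KD-labelled line, 10.3, 10.52 and 10.32 in SCR and 10.03, 10.19 and 10.02 in WT. At day 16 they read 9.35, 9.34 and 9.49, against 10.26, 10.48 and 10.14 in SCR and 10.06, 9.99 and 9.99 in WT. The lowest of the 30 control arrays of all stages (9.99) lay above the highest of the 15 KD-labelled arrays (9.58), so the groups did not overlap. KD-labelled ESCs differed from SCR by -1.14 (SE 0.09, 2.2-fold lower, limma adjusted p = 1.4e-12), and EBs by -1.15, -1.12, -0.97 and -0.9 at days 4 to 16. From WT it was -0.86 in ESCs (SE 0.09, adjusted p = 3.2e-09) and then -1.09, -0.82, -0.72 and -0.62. The difference from SCR was not shown to change with stage (limma's F test, adjusted p = 0.22), whereas that from WT was (adjusted p = 0.014).

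The 2 controls were not alike for Stk24: SCR was above WT by 0.28 in ESCs, 0.3 at day 8, 0.25 at day 12 and 0.28 at day 16 (limma adjusted p from 0.026 to 0.045), and by 0.06 at day 4 (adjusted p = 0.84). These calls are narrow, and each ended when any of 4 or 5 of its 6 arrays was left out singly. With a replicate block the day 12 call was lost (adjusted p = 0.05). The second probe set for Stk24, 1426247_at, showed a different course. Its difference from SCR was -0.68 in ESCs, -0.8 at day 4 and -0.45 at day 8, all called, but 0.11 at day 12 and -0.07 at day 16 (limma adjusted p = 0.47 and 0.62). From WT it was -0.33, -0.9, -0.54, 0.03 and -0.18, with the last 2 not called. The lower Stk24 signal at days 12 and 16 thus rests on 1 of its 2 probe sets.

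Stk26, the GCKIII kinase also known as MST4, had the widest span of the 8 genes: group means ran from 7.49 in KD-labelled ESCs to 10.76 in WT EBs of day 12. In ESCs the arrays read 7.46, 7.34 and 7.67 in the KD-labelled line, 9.43, 9.06 and 9.19 in SCR, and 8.79, 8.99 and 7.9 in WT. The third WT array lay apart from the other 2, yet above every KD-labelled array. At day 8 the KD-labelled arrays read 8.56, 8.28 and 8.12, against 10.68, 10.21 and 9.94 in SCR and 11.02, 10.22 and 10.56 in WT. At day 12 they read 8.39, 8.86 and 8.82, against 9.83, 9.66 and 9.69 in SCR and 10.91, 10.6 and 10.76 in WT. At day 16 they read 8.59, 8.84 and 8.69, within the SCR range of 9, 8.5 and 8.47 and below the WT arrays at 10.31, 9.76 and 9.58.

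Against SCR the difference in Stk26 was -1.74 in ESCs, -1.1 at day 4, -1.96 at day 8 (SE 0.21, 3.88-fold lower, limma adjusted p = 5.5e-10), -1.04 at day 12 and 0.05 at day 16 (95% interval -0.38 to 0.48, adjusted p = 0.84). It changed with stage (limma's F test, adjusted p = 4e-06), and by day 16 it had moved up from its ESC value by 1.79 (SE 0.3, adjusted p = 6.2e-06). Against WT the KD-labelled line was lower at every stage, with differences of -1.07, -1.44, -2.28, -2.07 and -1.18, all called, and 4.86-fold at day 8 (adjusted p = 1.5e-11). Where the difference from SCR was not called, at day 16, SCR itself was lower than WT: SCR minus WT was -1.03 at day 12 (95% interval -1.46 to -0.6, limma adjusted p = 0.00068) and -1.23 at day 16 (adjusted p = 7.8e-05). In ESCs SCR was above WT by 0.67 (adjusted p = 0.038), or by 0.34, no longer called, without the third WT array, and the call also ended without the first or the third SCR array. Markers differed between the controls as well: 18 of 20 cardiac muscle genes were called higher in SCR than in WT at days 8, 12 and 16 (medians 2.81, 2.69 and 2.74), 8 and 9 of 14 endothelial genes at days 12 and 16, and 10 of 20 pluripotency genes were lower at day 16. Their part in the level of Stk26 was not tested. The other probe set, 1419032_at, followed the same course, with differences from SCR of -1.84, -0.9, -1.87, -1.07 and 0.09 and from WT of -1.25, -1.17, -2.23, -1.94 and -1.14.

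Stk25, a GCKIII kinase found at the Golgi, rose in EBs of all 3 lines and was called different between lines at day 8 only. It has a single probe set here. At day 8 its arrays read 8.53, 8.98 and 8.61 in the KD-labelled line, 9.14, 9.52 and 9.05 in SCR and 9.24, 9.78 and 9.35 in WT, with no overlap. The difference at day 8 was -0.53 from SCR (SE 0.2, limma adjusted p = 0.028) and -0.75 from WT (adjusted p = 0.0021). At the other stages the groups overlapped and differences ran from -0.46 to -0.06, with none called. The difference from WT at day 12 passed the threshold without the second WT or the second KD-labelled array (-0.64 and -0.57), as did that from SCR at day 16 without the first SCR array (-0.54). The day 8 call against SCR ended without the second SCR array or without the first or the third KD-labelled array. Without the 3 arrays tagged as ESCs it was -0.49 (limma adjusted p = 0.12).

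**Figure D2:**
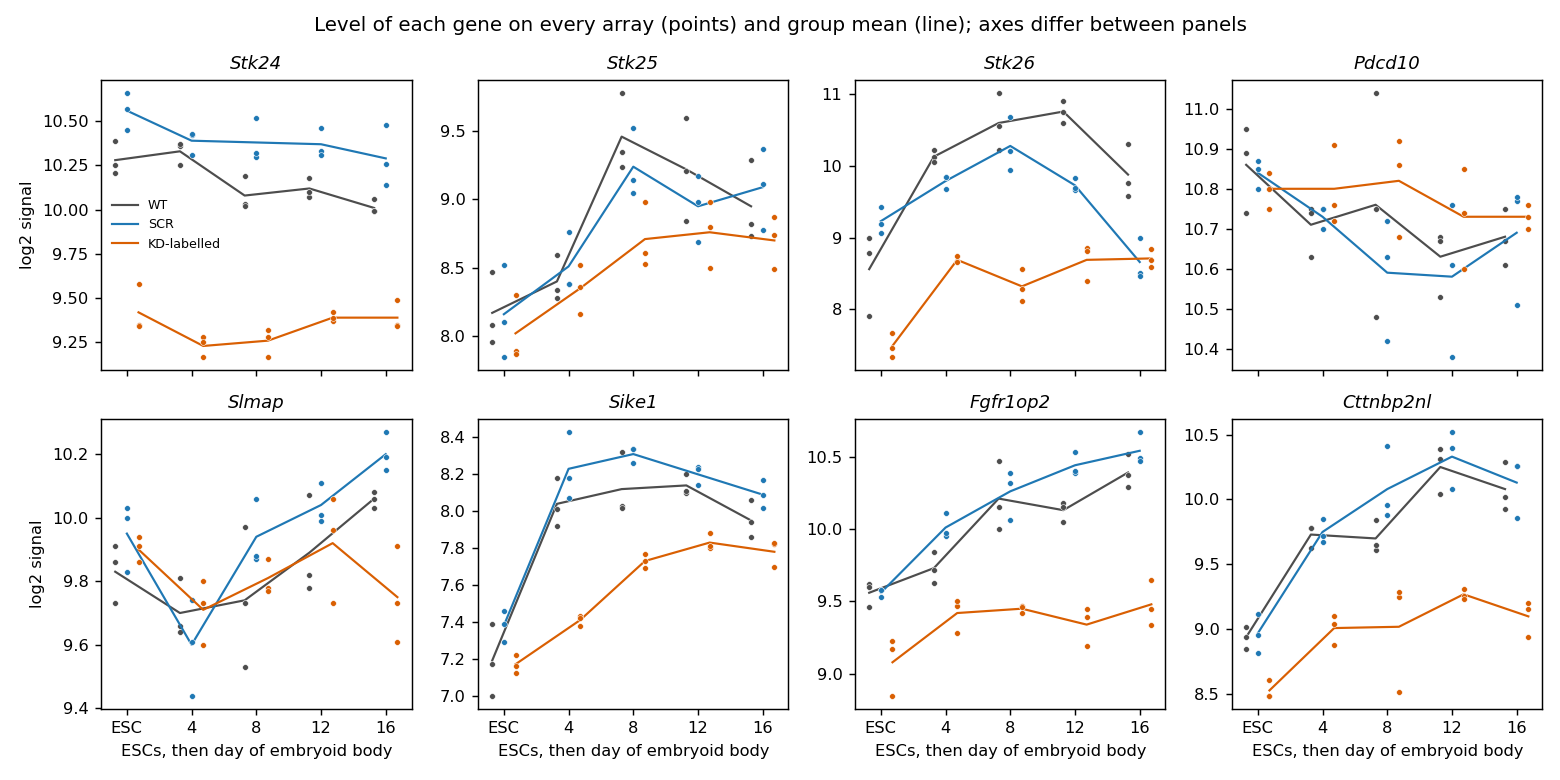
Log2 signal of the 8 genes on every array (points, vertical axis) in ESCs and in EBs of 4 to 16 days (horizontal axis), with lines through the means of 3 arrays; vertical axes differ between panels. Stk24 in the KD-labelled line stayed between 9.17 and 9.58, and Stk26 spread most between the 3 lines, with means at day 12 of 10.76 in WT, 9.73 in SCR and 8.69 in the KD-labelled line.

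Pdcd10, the adaptor that links GCKIII kinases to the striatins, hardly differed between lines on its brightest probe set. In ESCs its arrays read 10.75, 10.8 and 10.84 in the KD-labelled line, 10.87, 10.85 and 10.8 in SCR and 10.89, 10.95 and 10.74 in WT. At day 8 they read 10.92, 10.68 and 10.86, against 10.63, 10.42 and 10.72 in SCR and 11.04, 10.48 and 10.75 in WT, and the groups overlapped. Its 15 group means spanned 0.28. No line comparison was called; the furthest from 0 was 0.23 above SCR at day 8 (95% interval 0.01 to 0.45, limma adjusted p = 0.071), which passed the threshold without the third SCR array or without the second KD-labelled array.

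A further Pdcd10 probe set, 1448528_at, did differ. At day 8 it read 8.94, 8.3 and 8.77 in the KD-labelled line, 7.86, 7.32 and 7.98 in SCR and 8.3, 7.56 and 7.89 in WT. The KD-labelled arrays were higher than those of SCR, while the second of them met the highest WT array at 8.3. The difference was 0.95 from SCR (limma adjusted p = 0.00012) and 0.75 from WT (adjusted p = 0.0018) at day 8, and 0.62 and 0.56 at day 12, both called. It was -0.2 from either control in ESCs, not called, and moved from there to day 8 by 1.15 against SCR (adjusted p = 0.0014) and 0.96 against WT (adjusted p = 0.0067). Over time this probe set fell by 1.27 to day 8 in SCR and by 1.08 in WT, both called, with -0.12 in the KD-labelled line, not called. The dim probe set 1458938_at showed no called difference between lines.

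Fgfr1op2, an adaptor related to Sike1 that binds the striatin core, was lower in the KD-labelled line at every stage, and by more at day 16 than in ESCs. In ESCs its arrays read 9.23, 9.17 and 8.85 in the KD-labelled line, 9.58, 9.58 and 9.53 in SCR and 9.62, 9.6 and 9.46 in WT. At day 12 they read 9.39, 9.19 and 9.45, against 10.53, 10.39 and 10.4 in SCR and 10.18, 10.15 and 10.05 in WT. At day 16 they read 9.34, 9.45 and 9.65, against 10.49, 10.47 and 10.67 in SCR and 10.29, 10.52 and 10.37 in WT. The KD-labelled arrays lay below all controls at each of these stages. From SCR the difference was -0.48 in ESCs (SE 0.11, limma adjusted p = 0.00097), -0.59, -0.81, -1.1 and, at day 16, -1.06 (2.09-fold lower, adjusted p = 1.5e-10). It had moved further down from its ESC value by day 12 (-0.62, SE 0.16, adjusted p = 0.0014) and day 16 (-0.58, adjusted p = 0.0022). From WT it was -0.48, -0.31, -0.76, -0.78 and -0.91, all called, and the move from ESCs to day 16 was -0.44 (adjusted p = 0.021), while those to days 8 and 12 were not called (adjusted p = 0.16 and 0.12). The day 4 call against WT ended without the second array of either line.

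The other probe sets of Fgfr1op2 did not follow it. The values of 1431020_a_at against SCR were 0.06, -0.01, -0.14, -0.35 and -0.42, called only at days 12 and 16. In contrast, 1427526_at was higher in the KD-labelled line at day 8, by 0.59 against SCR (limma adjusted p = 0.0078) and 0.84 against WT (adjusted p = 0.00024). With the mean of the 3 probe sets, the differences in ESCs and at days 4 and 8 were no longer called against either control, and that at day 12 not against WT (-0.21).

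Cttnbp2nl, an adaptor that binds striatins and cortactin, rose in all lines on its brightest probe set, and less far in the KD-labelled line. In ESCs its arrays read 8.49, 8.49 and 8.61 in the KD-labelled line, 9.12, 8.82 and 8.96 in SCR and 9.02, 8.94 and 8.85 in WT. At day 8 they read 9.25, 8.52 and 9.29, against 9.88, 9.96 and 10.41 in SCR and 9.61, 9.65 and 9.84 in WT, and the second KD-labelled array stood apart. At day 12 they read 9.26, 9.23 and 9.31, against 10.52, 10.4 and 10.08 in SCR and 10.39, 10.31 and 10.04 in WT. No KD-labelled array reached a control array of its stage. Cttnbp2nl differed from SCR by -0.44 in ESCs (SE 0.15, limma adjusted p = 0.032), and by -0.74, -1.06, -1.07 (2.09-fold lower, adjusted p = 1.8e-07) and -1.03. Without the second array it was -0.81 at day 8, and -0.43 against WT. From WT it was -0.41 in ESCs, not called (adjusted p = 0.059), and then -0.72, -0.68, -0.98 and -0.98.

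The gap in Cttnbp2nl widened from ESCs to day 12 by -0.63 against SCR (SE 0.22, limma adjusted p = 0.018) and -0.57 against WT (adjusted p = 0.031). The ESC call against SCR ended without the first or the third SCR array, and without the first or second KD-labelled array. Both further probe sets were lower too, and called at days 4 to 16 against both controls. Against SCR, 1418985_at ran from -0.66 to -1.32 and 1449300_at from -0.36 to -0.6 over those days, so that all 3 probe sets of Cttnbp2nl went the same way between lines in EBs. Over time, in the KD-labelled line, the calls of the brightest probe set at days 4 and 8 (0.48 and 0.49) ended in 4 and 2 of the 6 fits without 1 array, and 1449300_at differed from ESCs by -0.15, -0.13 and -0.2 at days 4, 8 and 16, none called.

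Sike1, the adaptor that pairs with Slmap, was lower in KD-labelled EBs, most at day 4. There the arrays read 7.38, 7.43 and 7.42 in the KD-labelled line, 8.43, 8.18 and 8.07 in SCR and 8.01, 8.18 and 7.92 in WT. In ESCs they read 7.12, 7.22 and 7.16, against 7.39, 7.29 and 7.46 in SCR and 7.39, 7.17 and 7 in WT, where the KD-labelled and WT arrays overlapped. The difference from SCR was -0.21 in ESCs (limma adjusted p = 0.099), -0.82 at day 4 (SE 0.09, 1.76-fold lower, adjusted p = 2.7e-09), -0.58, -0.37 and -0.31. From WT it was -0.02, -0.63, -0.39, -0.31 and -0.17, not called in ESCs or at day 16. It changed from ESCs to day 4 by -0.6 against SCR (adjusted p = 0.00048) and -0.61 against WT (adjusted p = 0.0004). Sike1 rose by 0.85 to day 4 in SCR and WT alike, and by 0.24 in the KD-labelled line (adjusted p = 0.054).

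The 6 probe sets of Sike1 disagreed. Of the 5 further ones, 1422594_at (-0.87, -0.65, -0.5 and -0.73 at days 4 to 16) and 1438442_at (-0.89, -1.17, -1.05 and -1.32) were called lower than SCR at every EB stage. A further one, 1450679_at, was called lower at day 4 (-0.39, limma adjusted p = 0.0088) but higher in ESCs (0.38) and at day 12 (0.32, adjusted p = 0.024). Likewise 1443226_at was lower at day 4 (-0.34) and higher at day 12 (0.5), and the dim 1422296_at (mean signal 2.71) was higher at day 4 (0.33, adjusted p = 0.015).

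Slmap, a membrane-anchored protein with a forkhead-associated domain that binds phosphorylated Hippo kinases, was called lower in the KD-labelled line at day 16 and at no other stage. Its arrays then read 9.73, 9.61 and 9.91 in the KD-labelled line, 10.27, 10.19 and 10.15 in SCR and 10.08, 10.03 and 10.06 in WT, with no overlap. The difference was -0.45 from SCR (SE 0.1, 1.37-fold lower, limma adjusted p = 0.00024) and -0.31 from WT (adjusted p = 0.01), the latter not called without the second KD-labelled array. At the other 4 stages differences ran from -0.13 to 0.11, the groups overlapped and none was called. From ESCs to day 16 the difference moved by -0.4 against SCR (adjusted p = 0.021) and -0.38 against WT (adjusted p = 0.033). Its further probe sets, both under the median signal of all genes (6.21), were not called at day 16 (-0.39 and -0.12 against SCR), and 1421215_a_at was higher than SCR in ESCs (0.47, adjusted p = 0.017). The value of -0.39 is imprecise: on 1426458_at the day 16 arrays read 6.77, 4.09 and 6.26 in the KD-labelled line and 6.86, 5.15 and 6.28 in SCR.

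**Figure D3:**
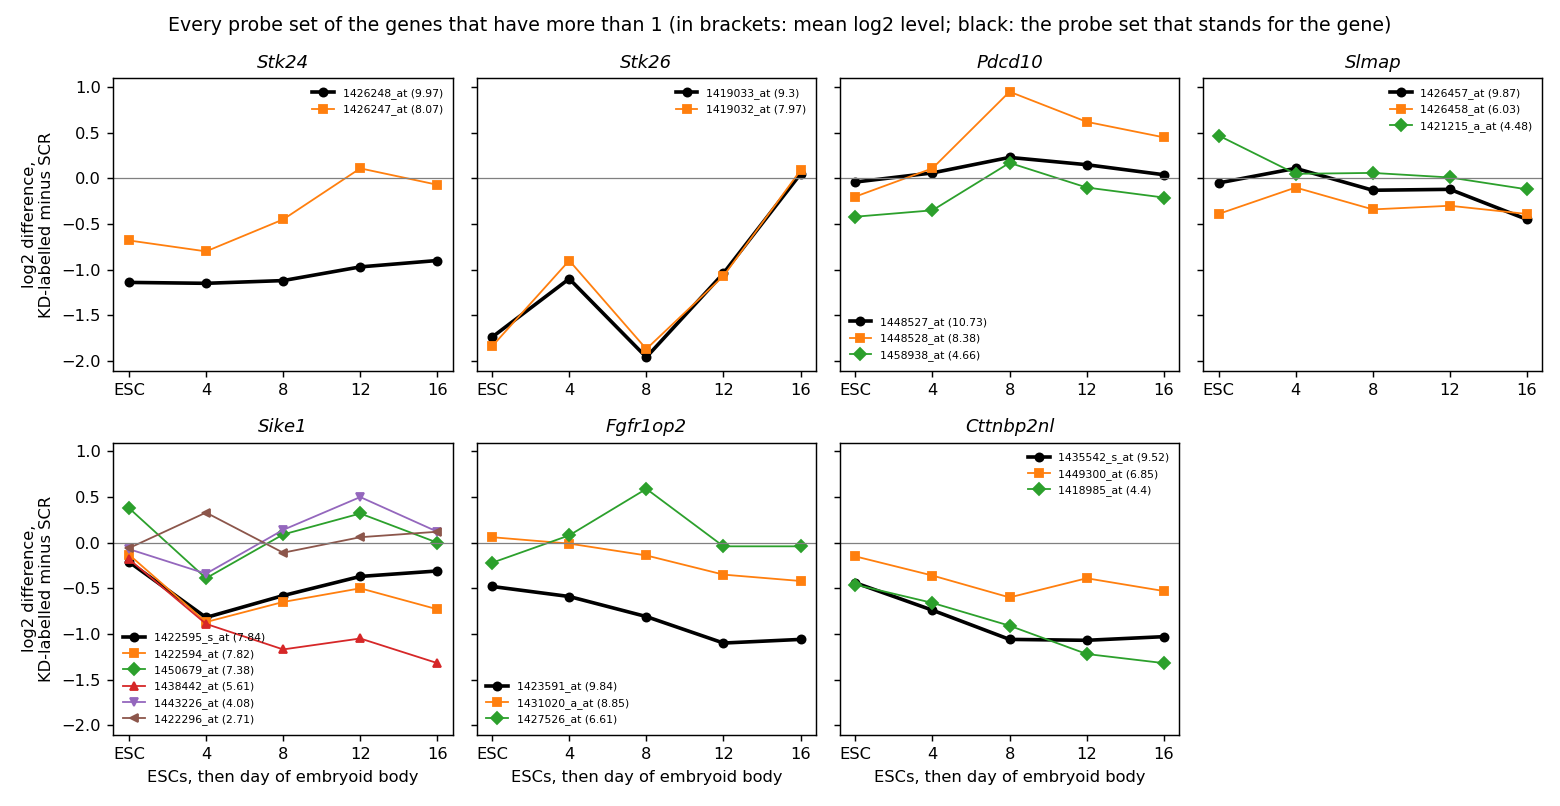
KD-labelled minus SCR in log2 units (vertical axis) for every probe set of the 7 genes with more than 1, over ESCs and EB days (horizontal axis); black marks the probe set that stands for the gene. The curves of Stk26 ran together (0.05 and 0.09 at day 16) and those of Cttnbp2nl lay below 0, whereas at day 12 those of Sike1 ran from -1.05 to 0.5 and those of Stk24 from -0.97 to 0.11.

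Over time, Stk25, Stk26, Sike1, Fgfr1op2 and Cttnbp2nl were all called higher than in ESCs at days 8 and 12 in SCR and WT. The call for Stk26 at day 12 in SCR (0.5, limma adjusted p = 0.037) ended in 5 of the 6 fits without 1 array. In WT, 3 of the 8 genes were called higher than in ESCs at day 4 (21.4% of all genes), and 5 at days 8, 12 and 16 (25.8%, 26.8% and 28.1%). In SCR, 4 were at day 4 (20.6%) and 5 at days 8, 12 and 16 (26%, 27.5% and 29.1%), with Slmap in the place of Stk26 at day 16. In the KD-labelled line, 3 were at day 4 (12.4%), 5 at day 8 (17.8%), 4 at day 12 (20.2%) and 5 at day 16 (19.1%). Comparisons within a line share their ESC arrays. Cttnbp2nl rose by 1.31 to day 12 in WT (SE 0.15, limma adjusted p = 1.9e-09), by 1.37 in SCR and by 0.74 in the KD-labelled line. Stk25 rose by 1.29 to day 8 in WT, by 1.08 in SCR and by 0.69 in the KD-labelled line, and the difference between these rises was not called (adjusted p = 0.1 against WT and 0.32 against SCR). Stk26 in the KD-labelled line rose by 1.2 to day 4 (SE 0.21, adjusted p = 4.1e-05) and stood at means of 8.32 to 8.71 after that, while in SCR it fell by 0.57 from ESCs to day 16 (adjusted p = 0.017), not called in 3 of the 6 fits without 1 array.

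In both SCR and WT, Stk24 fell by 0.27 to day 16 (limma adjusted p = 0.0067 in each), with -0.03 in the KD-labelled line, not called. The SCR call ended without the third day 16 array (-0.19). Slmap was lower at day 4 (-0.36, adjusted p = 0.0044) and higher at day 16 (0.25, adjusted p = 0.03) than in ESCs of SCR, the latter not called in 3 of the 6 fits without 1 array. The brightest probe set of Pdcd10 was called lower in SCR EBs at day 8 (-0.25) and day 12 (-0.26), calls that ended in 5 and 4 of the 6 fits without 1 array, and in neither of the other lines. Its 1448528_at fell in both controls, as given above. The median of all genes was also below 0 in the controls, from -0.1 to -0.19 at days 8 to 16 (at most -0.3 with arrays centred on their medians), and closer to 0 after cyclic loess scaling (-0.03 to 0).

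The difference between the KD-labelled line and SCR changed with stage for 5 of the 8 genes by limma's F test, against 58.5% of all genes, and that from WT for 4, against 57.6%. These shares are near or below those of all genes. SCR and WT themselves differed for 2 members in ESCs (10.2% of all genes), 0 at day 4 (1.93%; limma, with 2 members at an unadjusted p under 0.05), 1 at day 8 (6.99%), 3 at day 12 (14.7%) and 2 at day 16 (8.11%). These were Stk24, Stk26 and, at day 12, Fgfr1op2, which was higher in SCR than in WT by 0.31 (limma adjusted p = 0.049), a call that ended without any 1 of the 6 arrays.

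Marker genes moved with these groups. At days 8, 12 and 16, all 20 pluripotency genes were called higher in the KD-labelled EBs than in SCR, and 20, 19 and 20 than in WT; at day 4 the counts were 17 and 16, with 1 lower in each. Of 16 genes of mesenchyme and smooth muscle, 14 were lower than in SCR at days 8, 12 and 16, and 13, 13 and 15 than in WT, with a list mean of 5.37 to 5.88 on the KD-labelled arrays against 9.79 to 10.25 on those of SCR and WT. Of 20 cardiac muscle genes, 19, 18 and 18 were lower than in SCR and 12, 14 and 11 than in WT. At day 16 the genes lower than in SCR numbered 9 of 14 for endothelium, 1 of 11 for blood, 11 of 15 for endoderm and liver, 8 of 13 for neural cells and 4 of 9 for trophoblast, and those higher numbered 3, 4, 4, 2 and 5. Blood genes called lower numbered 8 of 11 at day 8 and 7 at day 12 against SCR, and 9 and 7 against WT. Against WT at day 16, 2 trophoblast genes were higher and 5 lower. In EBs the part of this shift in the levels of the 8 genes was not tested. In ESCs 4 pluripotency genes were higher and 2 lower than in SCR, and 1 higher and 1 lower than in WT. Other lists differed there too: of 13 neural genes 4 were lower and 0 higher against each control (medians -0.65 against SCR and -0.37 against WT), and of 15 endoderm and liver genes 5 were higher and 0 lower against each (medians 0.27 and 0.29). Stk24, Stk26 and Fgfr1op2 were lower than both controls in ESCs, and the part of these lists in that was not tested. On its brightest probe set, Stk24 in the KD-labelled EBs (9.17 to 9.49) lay below every ESC array of SCR and WT (10.21 to 10.66). On 1426247_at it did not: the KD-labelled arrays of day 12 (7.81 to 8.19) overlapped those of WT ESCs (8 to 8.42). On the brightest probe set of Cttnbp2nl, the KD-labelled EBs (8.52 to 9.31) overlapped control ESCs (8.82 to 9.12).

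**Figure D4:**
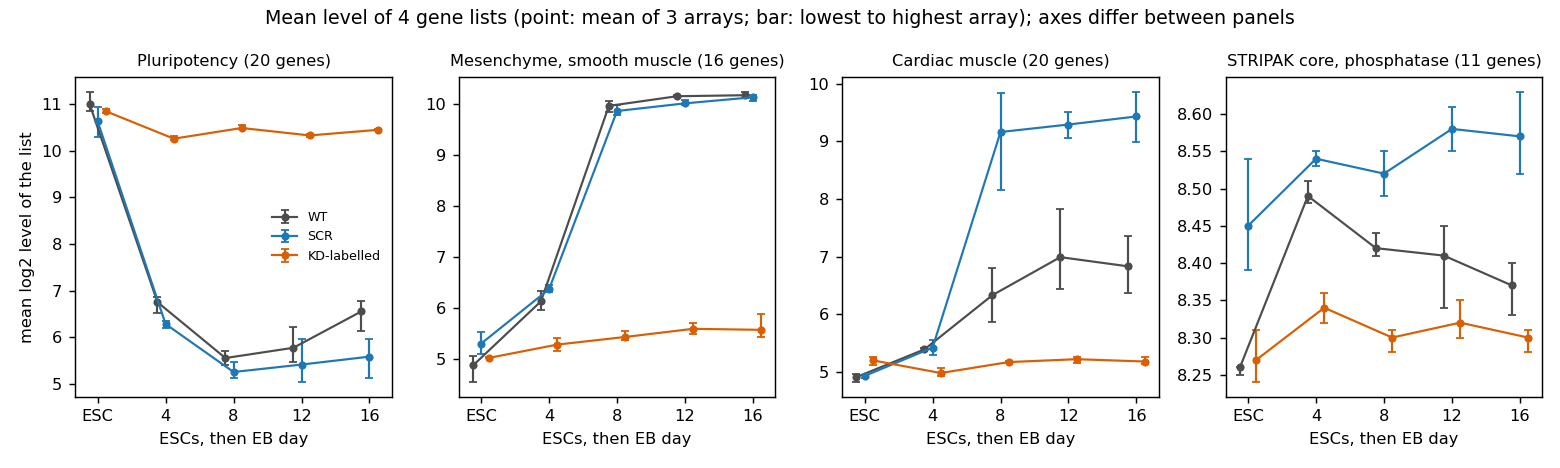
Mean log2 level (vertical axis) of pluripotency, mesenchyme and smooth muscle, cardiac muscle, and STRIPAK core genes in ESCs and EBs (horizontal axis), as the mean of 3 arrays with a bar from the lowest to the highest array; axes differ between panels. In the KD-labelled line the pluripotency mean was at least 10.23 and that of mesenchyme and smooth muscle at most 5.88 on every array.

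The striatins and the phosphatase, with 11 genes measured for the core (Strip2 among them), moved in part. Against SCR, 4, 5, 4, 5 and 4 of 11 were called lower over the 5 stages and none higher. Of all genes, 11.3%, 19.9%, 24.7%, 24.6% and 26.8% were called lower. Against WT, 0, 5, 4, 4 and 2 were lower (9.78%, 19.9%, 23.9%, 23.6% and 26.1% of all genes) and 0, 1, 0, 1 and 0 higher. These shares apply to the lists below as well. The share of all genes called higher is not given here, so counts of higher genes, here and for the marker lists, have no such background. The median of the list was -0.17 to -0.24 against SCR and -0.18 to 0.02 against WT, beside the medians of all genes given above. Strn4, a striatin, was lower at day 8 (-0.76 against SCR and -0.49 against WT), and Strn, the founding striatin, at day 4 (-0.69 and -0.55). Strn3, another striatin, was not called lower in any comparison and was higher than WT at day 4 (0.31, limma adjusted p = 0.042). Ppp2ca, a catalytic subunit of the phosphatase, was lower than both controls at every EB stage (-0.38 to -0.28), as was the scaffold subunit Ppp2r1a (-0.55 to -0.28). Ppp2cb, the other catalytic subunit listed, was not called at any EB stage (-0.17 to 0.08). Ppp2r1b, the other scaffold subunit, was called lower only at day 4 (-0.43 against each control). Mob4 and Cttnbp2, the paralogue of Cttnbp2nl, were not called in any of the 10 comparisons.

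Among 10 partners and substrates of GCKIII kinases, 2 to 4 were higher and 4 lower than SCR at each stage, and 1 to 3 higher and 2 to 4 lower than WT. Their median difference from SCR lay between -0.02 and 0.06. From WT it was -0.21 in ESCs and then -0.13, -0.06, 0.01 and -0.16 at days 4 to 16. Stk38 and Stk38l, NDR kinases that act downstream of GCKIII kinases, were higher at day 4 by 1.05 and 0.85 against SCR and by 0.98 and 0.96 against WT. Sav1, the Hippo scaffold that counters STRIPAK, was lower at day 4 (-1.57 and -1.67). Msn (moesin), a membrane linker of the ezrin family, was lower at day 8 (-0.81 and -0.83).

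Of 11 genes of the CCM complex and the pathway below CCM3, 2 or 3 were higher and 2 to 5 lower than SCR, and 2 or 3 higher and 1 to 4 lower than WT. Their median against SCR went from 0.22 in ESCs to -0.28 at day 8. Klf2, a transcription factor that rises when the CCM complex is lost from endothelium, stood at 10.43 at day 4 in the KD-labelled line against 4.85 in SCR and 5.26 in WT. Klf4 was higher at day 8 by 2.34 against SCR and 1.95 against WT. Both are also on the pluripotency list, so they are counted in the marker shift above too. Thbs1, a secreted matrix protein, was lower at day 16 (-4.13 and -4.18), as was Heg1, the receptor that holds the CCM complex at the membrane (-1.39 and -0.74).

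Of 18 measured Hippo kinases and adaptors, 0, 3, 7, 8 and 8 were higher and 4, 10, 7, 6 and 7 lower than SCR over the stages, with medians of -0.21, -0.4, 0.17, 0.09 and 0.21. Against WT, 0, 3, 4, 6 and 6 were higher and 3, 9, 6, 5 and 5 lower. Amot, a junction protein that binds YAP, changed sides: it was lower at day 4 (-2.53 against SCR and -2.63 against WT) and higher at day 16 by 1.78 and 1.09. Wwc1 (Kibra), an upstream activator, was higher at day 8 by 1.51 and 1.1, and Tnik, a kinase that can act on Lats, was lower then (-2.61 and -2.3). Of 13 YAP and TEAD factors and target genes, 1 to 5 were higher and 6 to 8 lower than SCR, with medians from -0.51 to -0.23, and 1 to 3 were higher and 2 to 7 lower than WT. Tead4 was higher at day 12 by 1.35 and 1.23 and Ccn2, a secreted target of YAP, at day 4 by 1.24 and 1.11. Axl, a receptor tyrosine kinase and YAP target, was lower at day 8 (-4.3 and -4.47), and Fstl1, a secreted glycoprotein, at day 12 (-2.99 and -3.14). The named genes of these lists are those with the largest changes called alike against both controls, so they show the range of each list and not its centre.

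Across the 15 group means, Fgfr1op2 and Cttnbp2nl ran together most closely among the 8 genes (Pearson r 0.93), followed by Sike1 and Cttnbp2nl (0.89). Pdcd10 ran against Cttnbp2nl (-0.87), over its span of only 0.28. Among 9037 genes whose group means span at least 1, those most like Stk24 were Srf (0.948), Zcchc2 (0.929) and Cisd2 (0.928). Stk26 was most like Ppfibp1, Igf2bp3 and Amer1 (0.937 each), and Stk25 like Stx5a (0.977), Tent5a and Rhoc (0.976 each). Sike1 was most like Sema4c (0.976), Tspan12 and Cd24a (0.972 each). The genes most like Fgfr1op2 were Bcl2 (0.983), Rbm5 (0.98) and Rbmx (0.978), and those most like Cttnbp2nl were Lrrc58, Sirpa and Cacfd1 (0.98 each). These correlations are descriptions over 15 groups that share lines, stages and arrays.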

How the data were processed

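The deposited values are log2 signals of 45037 probe sets on 45 arrays, already processed by the authors. The submitters' processing notes name RMA, Partek 6.6 and the Expression Console of Affymetrix, and the role of each is not given in the sources used here. Array medians ran from 5.02 to 5.18, and replicate arrays correlated at 0.9888 to 0.9961. The number of arrays limits the precision.

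Groups follow titles and source names. The SCR titles number arrays 4 to 6, so replicate numbers are those of the source names. The first 8-day array of each line was kept with the EBs named in its title.

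Of the probe sets, 34945 carry 1 gene symbol and name 18193 genes; the probe set with the highest mean over 45 arrays stood for a gene. The 8 genes have 23 probe sets, of which 15 served as a check. The model in limma 3.58.1 (R 4.3.3) had 1 mean for each of the 15 groups and used all arrays (30 residual and 5.17 prior degrees of freedom). A gene was called where its p, adjusted by Benjamini-Hochberg within a comparison, was under 0.05. SE and 95% intervals are limma's. The procedure was tested on simulated data.

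The members and gene lists were chosen with earlier results of these data known. Beside the members and Strip2, the text names the 2 largest rises and falls against SCR of each list among genes called alike against both controls. It also names the 3 genes most like each member by Pearson r. Of the core list, Strn3, Ppp2ca, Ppp2cb, Ppp2r1a, Ppp2r1b, Mob4 and Cttnbp2 were singled out after their values were seen. Gene names and promoter windows come from RefSeq tables of GRCm38.p6, and tables and figures were made with Python 3.11.15, pandas 2.3.3, numpy 2.4.6 and matplotlib 3.10.9.

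Same-numbered arrays of 2 lines did not deviate together throughout: the correlations of their deviations ran from -0.303 to 0.477, and all were over 0.1 in 3 of 15 comparisons, those of SCR with WT in ESCs and at days 8 and 12. There, a replicate block changed 1 call: Stk24 at day 12 had an adjusted p of 0.05 (limma). Alternatives covered scaling, dim genes, probe sets, the arrays fitted, the prior, the block, single arrays left out, and a 1.5-fold minimum. Leaving out the 3 arrays tagged as ESCs was chosen after seeing the data.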

Additional observations from a re-analysis of the deposited data

Results flagged for a closer look

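For several of the 8 genes, the difference between the KD-labelled line and a control line was not the same at all 5 stages, by limma's F test over the 4 changes from ESCs with adjustment over all genes. Against SCR this held for Stk26 (adjusted p = 4e-06), whose difference went from -1.74 in ESCs to 0.05 at day 16. It held for Sike1 (adjusted p = 0.0011), with -0.21 in ESCs and -0.82 at day 4, and for Fgfr1op2 (adjusted p = 0.0017), with -0.48 in ESCs and -1.1 at day 12. It also held for Slmap (adjusted p = 0.017), with -0.45 at day 16, and for Cttnbp2nl (adjusted p = 0.038), with -0.44 in ESCs and -1.07 at day 12.

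Against WT it held for Stk26 (limma adjusted p = 0.0013), from -1.07 in ESCs to -2.28 at day 8 and -1.18 at day 16. Sike1 (adjusted p = 0.002) went from -0.02 to -0.63 at day 4, Fgfr1op2 (adjusted p = 0.006) from -0.31 at day 4 to -0.91 at day 16, and Stk24 (adjusted p = 0.014) from -1.09 at day 4 to -0.62 at day 16. Among all genes, 58.5% and 57.6% changed with stage in the same tests.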

How the results depend on the processing

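Of 216 differences of the 8 genes (15 between lines and 12 over time for each), every one called kept its direction when arrays were centred or scaled by cyclic loess, when dim genes were left out, when other priors or a replicate block were used, and when single arrays were left out. A difference that is not called has no direction to keep. Calls were lost all the same: centring lost 5 and gained 5, and cyclic loess lost 9 and gained 3. Adjustment over every probe set lost 3 calls and fitting only the groups compared lost 17, and neither gained any. Leaving out dim genes gained 8 calls and the other priors 4, and neither lost any. With the replicate block 2 calls were lost and 2 gained, and 5 members were called lower than SCR at day 16, as without it; the numbers do not pair the arrays throughout. Of 1296 fits without 1 array of a comparison, 82 lost a call and 11 gained one. Counts of members then ranged, for SCR minus WT, from 0 to 2 in ESCs, 0 to 1 at day 8, 1 to 2 at day 12 and 1 to 2 at day 16. They ranged from 1 to 3 for day 4 against ESCs in the KD-labelled line (1 without the first array of day 4, or the third) and from 3 to 5 for the F test against SCR, low without the first SCR or second KD-labelled array of day 16. Every other count stayed within 1 of the reported one.

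The choice of probe set mattered most. Of 405 values from further probe sets, 59 lost the call, 19 gained one and 46 had the opposite sign where either value was called. Most of these 46, listed below, were not called themselves. Those called against SCR were 1427526_at (day 8), 1450679_at (ESCs, day 12), 1443226_at (day 12), 1422296_at (day 4) and 1421215_a_at (ESCs). Against WT they were 1427526_at (days 4 and 8), 1450679_at (ESCs) and 1443226_at (day 12). Over time it was 1421215_a_at in the KD-labelled line (day 12). For Cttnbp2nl, 1449300_at gave over time in the KD-labelled line -0.15 (day 4), -0.13 (day 8), -0.2 (day 16). For Fgfr1op2, 1427526_at gave against SCR 0.08 (at day 4), 0.59 (at day 8), against WT 0.29 (in ESCs), 0.65 (at day 4), 0.84 (at day 8), 0.36 (at day 12), 0.31 (at day 16), and over time in SCR -0.24 (day 8). For Fgfr1op2, 1431020_a_at gave against SCR 0.06 (in ESCs), and against WT 0.04 (in ESCs), 0.1 (at day 4). For Sike1, 1422296_at gave against SCR 0.33 (at day 4), 0.06 (at day 12), 0.12 (at day 16), against WT 0.08 (at day 4), 0.08 (at day 8), 0.1 (at day 12), over time in WT -0.05 (day 12), -0.03 (day 16), and over time in SCR -0.07 (day 4), -0.01 (day 12). For Sike1, 1443226_at gave against SCR 0.14 (at day 8), 0.5 (at day 12), 0.12 (at day 16), and against WT 0.23 (at day 8), 0.44 (at day 12). For Sike1, 1450679_at gave against SCR 0.38 (in ESCs), 0.09 (at day 8), 0.32 (at day 12), against WT 0.44 (in ESCs), 0.09 (at day 12), and over time in the KD-labelled line -0.01 (day 16). For Slmap, 1421215_a_at gave against SCR 0.47 (in ESCs), over time in SCR 0.02 (day 4), -0.07 (day 16), and over time in the KD-labelled line -0.47 (day 12). For Slmap, 1426458_at gave over time in SCR -0.17 (day 16). For Stk24, 1426247_at gave against SCR 0.11 (at day 12), against WT 0.03 (at day 12), SCR minus WT -0.08 (at day 8), -0.08 (at day 12), -0.11 (at day 16), and over time in WT 0.12 (day 8). With the mean of all probe sets, 20 of 216 differences lost the call, 11 gained one and 1 had the opposite sign. The last was Fgfr1op2 at day 4 against WT, at 0.15 and not called. In this setting 3 members were called lower than WT at day 12, and SCR minus WT had 1 in ESCs, 0 at day 8 and 1 at day 16. Only the larger moves in counts are listed here, although Fgfr1op2 lost calls at other stages too, as given above. The share of all genes called in this setting is not given.

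For the settings that follow, only counts that moved by more than a factor of 1.5 are listed, without the share of all genes. With a 1.5-fold minimum, members lower than SCR numbered 2 in ESCs and 3 at day 16. Stk25 at day 8 (-0.53) and Sike1 at day 12 (-0.37) against SCR fell short of that minimum too, as did Fgfr1op2 at day 4 against WT (-0.31). For SCR minus WT the members called then numbered 1 in ESCs, 0 at day 8, 1 at day 12 and 1 at day 16. Those higher than ESCs were 2 at day 4 in SCR, and 1, 2 and 3 at days 4, 8 and 16 in the KD-labelled line. Fitting only the groups compared left 0 members in SCR minus WT in ESCs and at day 8, and 1 at days 12 and 16. Centring arrays left 1 at days 12 and 16, cyclic loess 1 at day 12 and adjustment over every probe set 1 at day 12. Without the 3 arrays tagged as ESCs, 0 were called at day 8. The cause of these changes was not tested. The shift of all genes against SCR at day 16 was 0.17 as deposited, 0.25 with centred arrays and 0.05 with cyclic loess.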
